A study of Homo sapiens with 18 samples.

Results

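The HOX genes are homeobox transcription factors, and together with their DNA-binding partners of the PBX, MEIS and PKNOX families they were followed in SH-SY5Y cells after an acute cocaine exposure. All probe sets that the annotation of the Affymetrix U133 Plus 2.0 array pairs with exactly 1 of 45 listed genes were taken: 38 HOX genes, PBX2, PBX3, PBX4, MEIS1, MEIS2, MEIS3 and PKNOX1. A probe set of its own was found for 35 of the 45 genes, giving 60 of the 54675 probe sets on the array. The 10 genes without one were HOXA3, HOXA4, HOXA5, HOXA6, HOXA7, HOXA9, HOXA10, HOXA11, HOXA13 and HOXD3, so that the HOXA cluster was represented by HOXA2 alone. A further 3 probe sets that the annotation gives to HOXD3, HOXD4 and another gene jointly were assigned to none of them.

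The SH-SY5Y line was established from a human neuroblastoma and acquires neuron-like features in retinoic acid. All dishes were differentiated in retinoic acid and then kept in medium without it before the experiment. Cells then received 1 or 5 μM cocaine for 30 min or the same medium changes without cocaine (untreated), and were harvested 6 or 24 h later. Each of the 6 combinations of dose and time was measured on 3 arrays, 18 arrays in all, each with RNA pooled from 3 dishes. The labels of the 5 μM samples also carry wording used for untreated controls, and the dose that they state was used. Nothing in the labels says that the 3 arrays of a group came from independent differentiations, so the p-values measure the spread between these arrays.

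HOX genes lie in 4 clusters, on chromosomes 7 (HOXA), 17 (HOXB), 12 (HOXC) and 2 (HOXD), and their order within a cluster parallels the order in which they are used from head to tail of the embryo, low numbers being anterior. In developing hindbrain and spinal cord they set the positional identity of neurons, and retinoic acid is a classical inducer, above all of the low-numbered genes. HOX proteins bind DNA weakly on their own. PBX proteins form joint complexes with them on DNA, and MEIS proteins and PKNOX1, a relative of MEIS, bind beside them and hold PBX in the nucleus.

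Promoter windows were read from RefSeq (build GRCh38.p14) for the members that this source lists, and are shown for HOXC4, HOXD4 and PBX3, because the values of these genes carry much of what follows. Each runs from 250 bases before the annotated start site to 30 bases after it, on the plus strand. HOXC5 has the same annotated window as HOXC4, and RefSeq places the start of HOXC6 at the same base. Capitals mark the MEIS word TGACAG on either strand.
HOXC4 (chr12:54016638-54016917): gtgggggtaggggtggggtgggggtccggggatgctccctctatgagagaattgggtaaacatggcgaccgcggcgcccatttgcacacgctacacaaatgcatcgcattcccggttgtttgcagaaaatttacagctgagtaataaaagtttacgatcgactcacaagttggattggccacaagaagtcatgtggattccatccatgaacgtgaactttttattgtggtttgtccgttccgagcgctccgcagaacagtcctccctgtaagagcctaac
HOXD4 (chr2:176151300-176151579): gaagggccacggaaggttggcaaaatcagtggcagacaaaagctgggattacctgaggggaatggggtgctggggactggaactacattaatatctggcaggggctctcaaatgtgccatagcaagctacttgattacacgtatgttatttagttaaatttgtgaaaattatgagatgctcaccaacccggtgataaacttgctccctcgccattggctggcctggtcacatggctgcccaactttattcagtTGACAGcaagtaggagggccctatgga
PBX3 (chr9:125747933-125748212): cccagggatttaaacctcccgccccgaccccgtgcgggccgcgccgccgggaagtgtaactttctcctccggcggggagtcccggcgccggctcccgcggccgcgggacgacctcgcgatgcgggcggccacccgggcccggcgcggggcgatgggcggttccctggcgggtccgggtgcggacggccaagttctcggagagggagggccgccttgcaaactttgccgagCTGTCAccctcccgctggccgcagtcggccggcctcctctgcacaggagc
TGACAG was found in the windows of HOXD4 and PBX3, in 5 of the 36 windows of the members and in 15.8% of the 35116 RefSeq windows, all searched over 300 bases on both strands. The PBX and HOX word TGATNNAT was in none of the 3 windows shown, in 4 of the 36 windows of the members and in 7.4% of all windows. The retinoid receptor word AGGTCA was in none of the 36 windows of the members and in 13.8% of all windows. A match, or its absence, describes the letters of the window only.

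Values are log2 probe set signals, on which a difference of 1 is a factor of 2, and levels of different probe sets are not compared because each has its own probes. A probe set was tested at a time when its mean over the 9 arrays of that time was above log2(40), or 5.32. At 6 h 24 of the 60 member probe sets passed, for 18 of the 35 genes, and at 24 h 29 passed, for 20 genes. Of the 24 that passed at 6 h, 8 were of MEIS and PKNOX1, 5 of PBX, 5 of HOXC, 5 of HOXD and 1 of HOXB. Among the HOX genes, passing probe sets thus came mainly from HOXC and HOXD. In HOXD, probe sets of HOXD1, HOXD4, HOXD8, HOXD9 and HOXD10 passed and none of HOXD11, HOXD12 or HOXD13 did. In HOXC, HOXC4, HOXC5, HOXC6, HOXC9 and HOXC11 passed, and HOXC8, HOXC10, HOXC12 and HOXC13 did not, with means of at most 4.19 at 6 h. In HOXB only HOXB5 passed of 10 genes at 6 h, joined at 24 h by HOXB3 and HOXB4, and HOXA2 had a mean of 3.1 at 6 h. All 3 PBX genes, all 3 MEIS genes and PKNOX1 passed at both times. The members nearest to the threshold at 6 h were HOXB5 with a mean of 5.33 inside it, and outside it a second HOXD4 probe set (1552337_s_at) at 5.32, a PBX2 probe set (211096_at) at 5.24 and HOXB4 at 5.21.

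**Figure D1:**
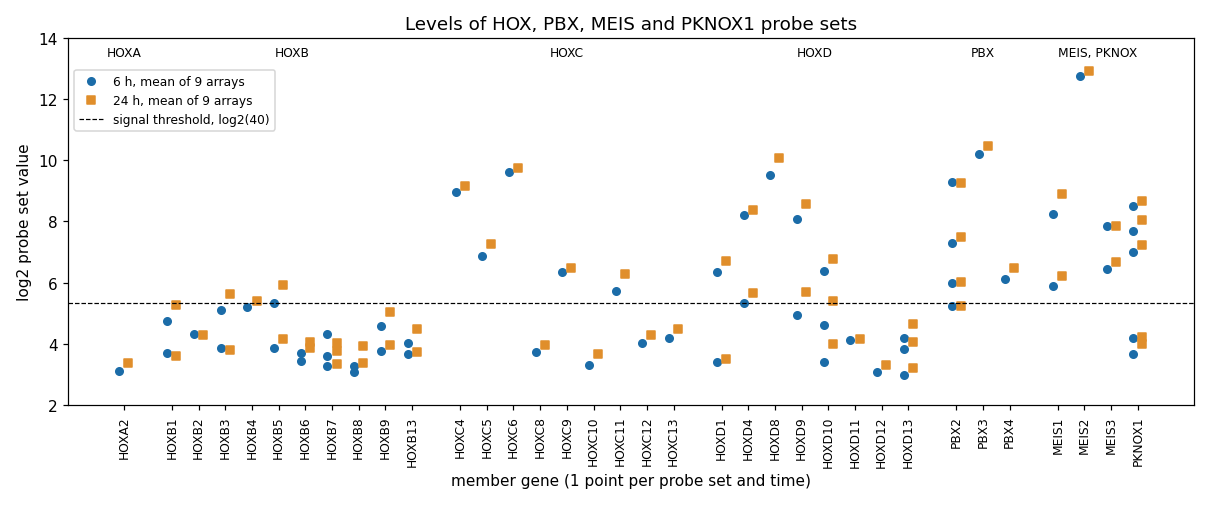
Mean log2 value over the 9 arrays of each time (vertical axis) for every member probe set, grouped by cluster along the horizontal axis, with circles for 6 h, squares for 24 h and a dashed line at the signal threshold of 5.32. Most HOXB points lie below the line, HOXC and HOXD hold points on both sides of it, and MEIS2 has a mean of 12.76 at 6 h.

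Means over the 9 arrays of 6 h were 9.62 for HOXC6 and 8.97 for HOXC4, 9.51 for HOXD8 and 8.2 for HOXD4, 10.22 for PBX3 and 9.28 for PBX2 (202876_s_at), and 12.76 for MEIS2 and 8.51 for PKNOX1 (221883_at), each on the scale of its own probes. The levels at 6 and 24 h were normalized separately by the authors and are not set against each other as a time course. Of the markers of noradrenergic neuroblastoma cells, 9 of 11 annotated genes were above the threshold at both times, among them DBH, PHOX2A, GATA3 and ISL1, while INSM1 and TH, the rate-limiting enzyme of dopamine synthesis, were below it. Markers of other cells were not all absent: 6 of 10 for mesenchymal neuroblastoma cells, 2 of 6 for Schwann cells and glia and 5 of 6 for fibroblasts were above it. In pooled RNA, fewer cells of a type and less RNA per cell cannot be told apart.

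The untreated arrays of 6 h did not form a uniform reference. CYP26A1, a retinoic acid-degrading enzyme that retinoic acid induces, was at 5.01 on untreated array 1 but at 10.69 and 10.99 on untreated arrays 2 and 3, and at no more than 5.61 on any cocaine array. CYP26B1 (8.48, 12.33 and 12.18), DHRS3 (6.81, 10.78 and 10.66) and the receptor gene RARB (8.41, 9.83 and 9.89) were likewise lower on untreated array 1 than on untreated arrays 2 and 3. The log2 ratio of the 3′ to the 5′ probe set of ACTB, a sign of RNA integrity and labelling, was 0.548 on untreated array 1, 1.116 and 0.894 on untreated arrays 2 and 3, and from 0.493 to 0.724 after cocaine. At 24 h this ratio was 0.926, 0.686 and 1.026 with 5 μM, against 0.609, 0.488 and 0.654 in untreated cells, so that the groups did not overlap. The log2 ratio of the spiked controls bioD and cre, which holds no cellular RNA, was from −1.64 to −1.5 after cocaine at 6 h, against −1.11 to −1.02 on the 3 untreated arrays, and from −1.28 to −1.12 on all 9 arrays of 24 h. The part of these differences between arrays in the results below was not tested.

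HOXC4, HOXC5 and HOXC6, neighbours at the anterior end of the HOXC cluster, were high on untreated arrays 2 and 3 at 6 h. HOXC4 was at 8.58, 9.27 and 9.75 on untreated arrays 1, 2 and 3, at 8.61, 8.89 and 9.09 with 1 μM cocaine, and at 8.63, 8.76 and 9.11 with 5 μM. Untreated arrays 2 and 3 stood above all 6 cocaine arrays, and untreated array 1 was the lowest of the 9. HOXC5 was at 6.65, 7.29 and 7.57 without cocaine, at 6.73, 6.71 and 7.02 with 1 μM and at 6.4, 6.62 and 6.75 with 5 μM. HOXC6 was at 9.43, 9.77 and 9.93 without cocaine, and its 6 values after cocaine ran from 9.54 to 9.61. The range over the 3 untreated arrays was 1.18 for HOXC4, 0.92 for HOXC5 and 0.501 for HOXC6, against 0.496, 0.628 and 0.0699 over their 6 cocaine arrays. HOXC9, which in neuroblastoma cells has been linked to retinoic acid-driven differentiation, was at 6.15, 6.36 and 6.7 without cocaine, and from 6.18 to 6.4 with cocaine. HOXC11 was at 5.71, 5.94 and 5.9 without cocaine and between 5.53 and 5.77 with it. Because the annotated transcripts of HOXC4, HOXC5 and HOXC6 overlap and share a start, their probe sets may read a common transcript and are not independent measurements.

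In the HOXD members untreated arrays 2 and 3 were again high. HOXD4 (205522_at) was at 7.73, 8.92 and 8.94 on the untreated arrays, at 8.1, 7.98 and 8.11 with 1 μM and at 8.01, 7.85 and 8.16 with 5 μM. HOXD1, the most anterior gene of the cluster, was at 5.86, 6.67 and 7.05 without cocaine, at 6.26, 6.26 and 6.44 with 1 μM and at 6.12, 6.14 and 6.26 with 5 μM. For both genes untreated array 1 was the lowest of the 9 arrays and untreated arrays 2 and 3 were the 2 highest, so the cocaine arrays lay between untreated arrays. HOXD8 was at 9.35, 9.98 and 10.26 without cocaine, at 9.31, 9.19 and 9.42 with 1 μM and at 9.4, 9.26 and 9.44 with 5 μM. HOXD10, a gene of lumbar motor neurons and limbs, was at 6.27, 6.92 and 6.88 without cocaine, at 6.06, 6.27 and 6.27 with 1 μM and at 6.24, 6.14 and 6.27 with 5 μM. In HOXD8 and HOXD10 untreated array 1 thus fell among the cocaine arrays. HOXD9 was at 8.07, 8.41 and 8.54 without cocaine, at 8.02, 7.91 and 7.93 with 1 μM and at 7.96, 7.86 and 7.97 with 5 μM, and here all 3 untreated arrays were above all 6 cocaine arrays.

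**Figure D2:**
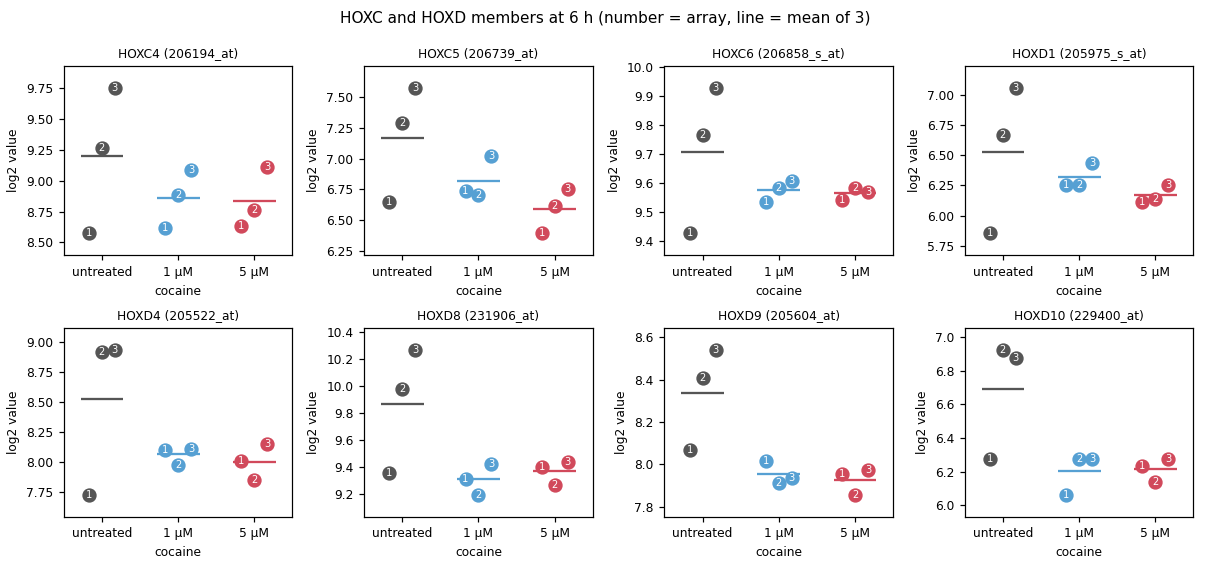
Log2 value (vertical axis, scaled per panel) of 8 HOXC and HOXD probe sets on each array of 6 h, by cocaine dose along the horizontal axis. Each numbered point is 1 array and each line is the mean of 3. Untreated arrays 2 and 3 lie above the cocaine arrays in every panel, while untreated array 1 lies below them in HOXC4, HOXC6, HOXD1 and HOXD4.

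Over all 24 member probe sets tested at 6 h, untreated arrays 2 and 3 were the 2 highest of the 9 arrays in 10, or 41.7%, against 10.8% of the 22455 probe sets tested. Untreated array 3 alone was the highest in 12 of the 24, or 50%, against 13.6% of all. The range over the 3 untreated arrays exceeded that over the 6 cocaine arrays in 13 of 24 member probe sets (54.2%), against 34.9% of all.

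The study asked whether an acute cocaine exposure changes gene expression. A limma fit of the 9 arrays of 6 h, with p-values adjusted by Benjamini-Hochberg over all probe sets tested and calls at an adjusted p under 0.1, called none of the 24 member probe sets at 5 μM against untreated, where 2.98% of all probe sets were called (670 of 22455). None was called at 1 μM against untreated or at 5 μM against 1 μM, in both of which 0% of all probe sets were called. At an unadjusted p under 0.05, 8 of 24 member probe sets (7 of them lower) passed at 5 μM, where 3871 of all 22455 did. At 1 μM 7 of 24 (5 lower) passed, where 3222 of 22455 did. Between the doses 2 of 24 passed, where 1448 of 22455 did. With all 60 member probe sets kept whatever their signal, again none was called in these comparisons, where 1.59% of all were called at 5 μM against untreated and 0% in the other comparisons. The values of the members were mostly negative: 20 of 24 at 5 μM against untreated, with a median of −0.15, against 54.63% of all probe sets with a median of −0.016. At 1 μM they were negative in 17 of 24, with a median of −0.12, against 51.81% of all with a median of −0.0057. The 3 cocaine arrays lay entirely below the 3 untreated arrays in 5 member probe sets and entirely above in 1 at 5 μM, where 13.1% of all probe sets lay below and 8.087% above.

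The smallest adjusted p among members at 5 μM was that of HOXD9, with a log2 difference of −0.41 (SE 0.11, adjusted p = 0.121, limma, n = 3 against 3). It was followed by PBX3 at −0.19 (adjusted p = 0.145), PKNOX1 (54051_at) at −0.16 (adjusted p = 0.166) and HOXD10 at −0.48 (adjusted p = 0.186). Larger differences went with wider spread: HOXC5 differed by −0.58 (SE 0.214), HOXD4 by −0.52 (SE 0.283) and HOXD8 by −0.50 (SE 0.197), with adjusted p of 0.223, 0.385 and 0.251. HOXB5, the only HOXB gene tested at 6 h, was at 5.14, 5.29 and 4.99 with 5 μM, against 5.33, 5.31 and 5.64 in untreated cells, a difference of −0.29 (adjusted p = 0.209). With 1 μM it was at 5.44, 5.44 and 5.43, 0.02 from the untreated mean. At 1 μM HOXD8 differed from untreated cells by −0.56, HOXD10 by −0.49 and HOXD9 by −0.38, and between the doses these 3 genes differed by 0.06, 0.01 and −0.03.

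**Figure D3:**
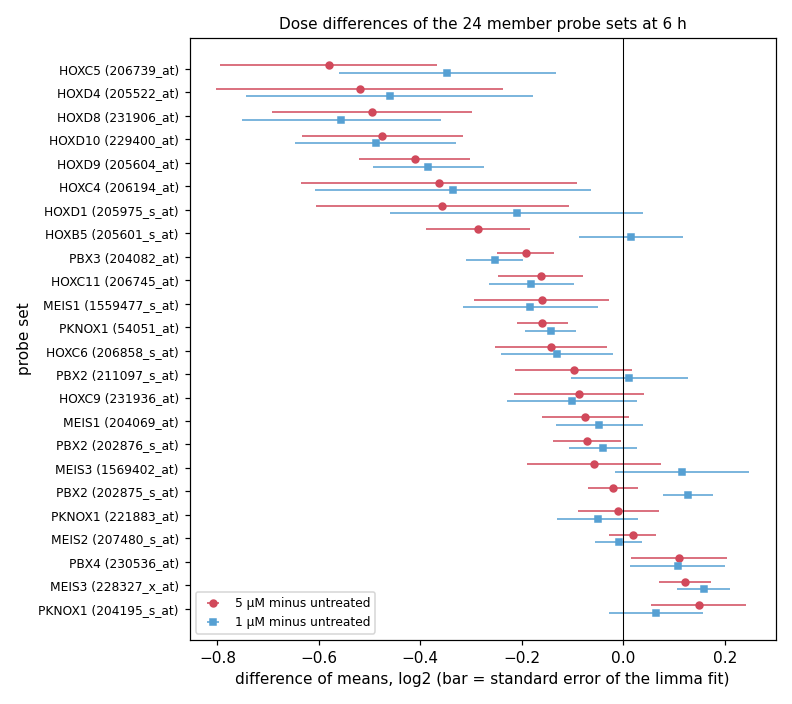
Log2 difference from untreated cells at 6 h (horizontal axis) for the 24 member probe sets tested (vertical axis, ordered by the difference at 5 μM), with circles for 5 μM, squares for 1 μM and bars for the standard error of the fit. HOXC5 is the lowest at 5 μM at −0.58 and PKNOX1 204195_s_at the highest at 0.15, and no value passed the adjusted threshold.

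The count of calls moved with the replicate number and with untreated array 1. Arrays of the same replicate number deviated together at both times, and with this number as a block the fit called 6 of the 24 member probe sets at 5 μM, where it called 18.6% of all probe sets, and 5 at 1 μM, where it called 12.5%. At 5 μM these were HOXC5 (adjusted p = 0.0416), HOXD9 (0.0579), HOXD10 (0.0623), PBX3 (0.0653) and PKNOX1 54051_at (0.0786), all lower, and MEIS3 228327_x_at (0.0984), which was higher. At 1 μM they were PBX3, MEIS3 228327_x_at, HOXD10, HOXD9 and HOXD8, with only MEIS3 higher. Without untreated array 1 and with no block, 10 member probe sets were called at 5 μM, all lower (10.8% of all called), and 9 at 1 μM (4.28% of all called), with differences of −0.92 for HOXD4, −0.84 for HOXC5 and −0.75 for HOXD8 at 5 μM. Without untreated arrays 2 and 3 the untreated group is 1 array, which is assumed to vary as the cocaine groups do, and a count of calls from this fit shows little. The values were then set against untreated array 1 alone, and HOXD4 differed by 0.28, HOXD1 by 0.31, HOXC4 by 0.26, HOXD8 by 0.02 and HOXD9 by −0.14 at 5 μM. All 5 μM arrays of HOXC6 and of HOXC9 were also above untreated array 1. Thus at that dose the sign for HOXC4, HOXC6, HOXC9, HOXD1, HOXD4 and HOXD8 turned with the untreated arrays that were kept.

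Among the cofactors, the differences at 5 μM lay between −0.19 and 0.15. PBX3 was at 10.17, 10.24 and 10.11 with 5 μM cocaine, against 10.31, 10.35 and 10.43 in untreated cells, and at 10.1, 10.14 and 10.09 with 1 μM. All 6 cocaine arrays were below all 3 untreated arrays, including untreated array 1, and untreated arrays 3 and 2 were the highest, as in HOXD9. The difference from untreated cells was −0.19 at 5 μM (SE 0.0563, adjusted p = 0.145) and −0.25 at 1 μM (SE 0.0563, adjusted p = 0.162), and against untreated array 1 alone it was −0.14 and −0.20. In PKNOX1 the groups were apart in 1 probe set only. Its 54051_at was at 7.62, 7.66 and 7.62 with 5 μM, against 7.84, 7.78 and 7.76 in untreated cells, while 221883_at differed by −0.01 and 204195_s_at by 0.15 at that dose.

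MEIS3 228327_x_at was at 7.89, 7.88 and 7.82 with 5 μM, against 7.76, 7.78 and 7.68 in untreated cells, a difference of 0.12 (SE 0.0518, adjusted p = 0.276). With 1 μM it was at 7.94, 7.9 and 7.86, so that all 6 cocaine arrays were above the untreated ones. The other MEIS3 probe set, 1569402_at, overlapped between the groups, with a difference of −0.06 at 5 μM and 0.12 at 1 μM. All 6 cocaine arrays lay below all 3 untreated arrays in 3 of the 24 member probe sets (HOXD9, PBX3 and PKNOX1 54051_at), against 6.82% of all probe sets, and above them in 1 (MEIS3 228327_x_at), against 3.48% of all. The ratio of the spiked controls separated the same arrays. MEIS2 ranged over only 0.08 on the 9 arrays, between 12.73 and 12.81. MEIS1 204069_at differed by −0.07 (SE 0.0863), PBX4 by 0.11 (SE 0.0939) and PBX2 202876_s_at by −0.07 (SE 0.0674) at 5 μM, with adjusted p between 0.594 and 0.701. PBX2 202875_s_at was at 7.3, 7.25 and 7.19 with 5 μM, against 7.39, 7.38 and 7.42 with 1 μM, a difference of −0.15 (adjusted p = 0.683).

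**Figure D4:**
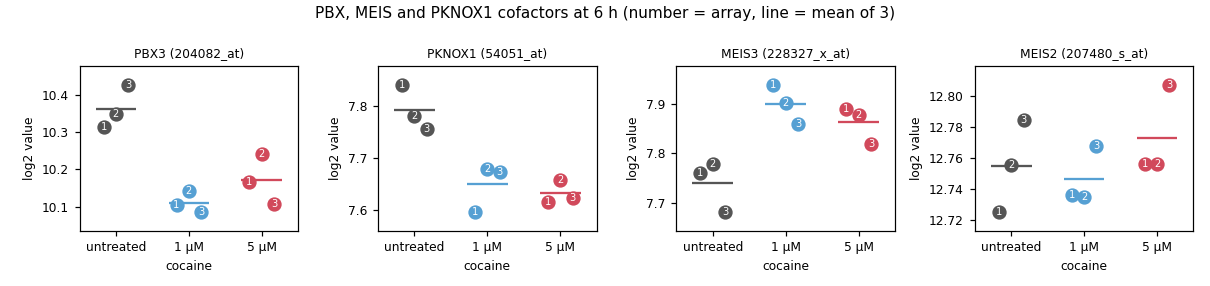
Log2 value (vertical axis, scaled per panel) of 4 cofactor probe sets on each array of 6 h by cocaine dose (horizontal axis), with numbered points for arrays and lines for the mean of 3; PKNOX1 and MEIS3 are shown by the probe set with the smallest p. The cocaine arrays of PBX3 reach at most 10.24 and its untreated arrays at least 10.31, those of MEIS3 lie above their untreated arrays, and the 9 MEIS2 values span 0.08.

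At 24 h no member probe set of 29 was called in any comparison. Of all 24307 probe sets tested, 0.0123% were called at 5 μM against untreated, 0% at 1 μM against untreated and 0.00823% at 5 μM against 1 μM. No member passed an unadjusted p under 0.05 in these comparisons, where 1751, 819 and 1488 of all probe sets did. The smallest adjusted p of a member at 5 μM against untreated was 0.713. HOXD4 (205522_at) was again spread widely, at 7.85, 8.97 and 8.97 in untreated cells, at 8.05, 8.61 and 8.45 with 1 μM and at 7.83, 8.45 and 8.13 with 5 μM. In each dose array 1 was the lowest, and the difference of 5 μM from untreated was −0.46 (SE 0.305). HOXC4 was at 8.93, 9.03 and 9.65 in untreated cells, at 8.94, 8.86 and 9.5 with 1 μM and at 8.96, 8.87 and 9.53 with 5 μM. Here array 3 was the highest at every dose, as it was for HOXC4 at 6 h. HOXD8 was at 9.94, 10.22 and 10.53 without cocaine, at 9.86, 9.98 and 10.1 with 1 μM and at 9.84, 9.89 and 10.23 with 5 μM. MEIS3 1569402_at had the second widest untreated range at 24 h, 0.87, with 6.13, 7 and 6.84 in untreated cells and from 6.56 to 6.77 with cocaine. Untreated array 3 was the highest of the 9 in 13 of the 29 member probe sets (44.8%), against 12.5% of all, and CYP26A1 was there at 9.55, against 5.4 and 6.04 on untreated arrays 1 and 2. Without untreated array 3, as without any other array, no member was called at 24 h.

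**Figure D5:**
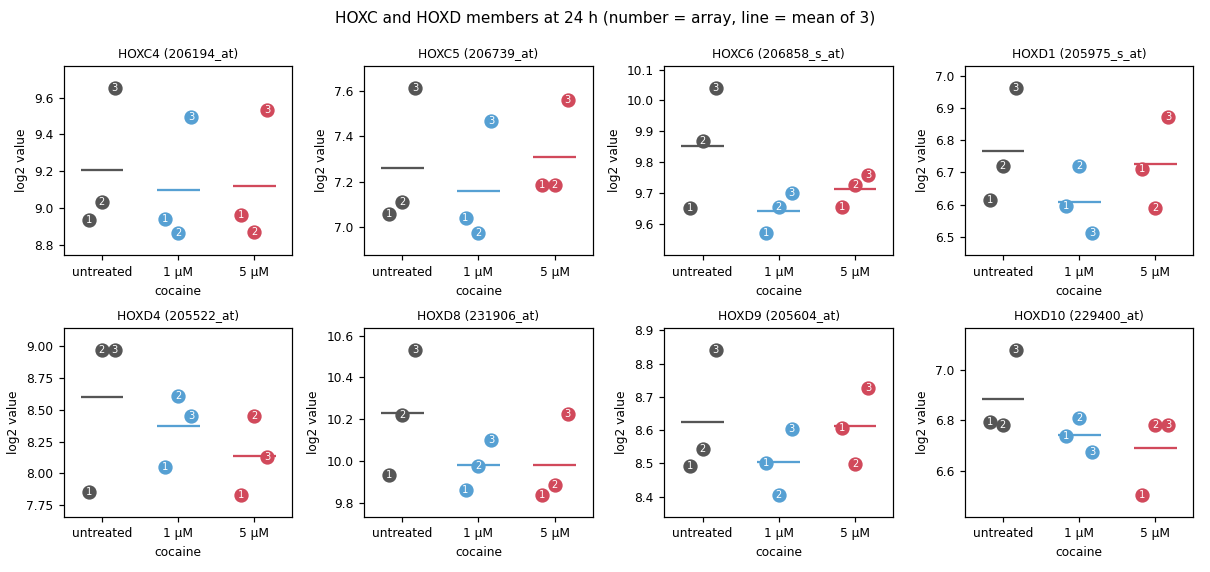
Log2 value (vertical axis, scaled per panel) of the same 8 HOXC and HOXD probe sets on each array of 24 h, by cocaine dose along the horizontal axis. Points carry the array number and lines are means of 3. Array 3 is the highest array of its dose in HOXC4, HOXC5 and HOXD8, cocaine or not, and array 1 is the lowest in HOXD4.

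The difference between 5 μM and untreated cells was also compared between 6 and 24 h, for the 24 member probe sets tested at both times. PBX3 alone was called, where 4.21% of all probe sets were called, with a log2 difference of −0.26 between the 2 effects (SE 0.0707, adjusted p = 0.0754, limma). At 24 h PBX3 was at 10.49, 10.49 and 10.51 with 5 μM, against 10.39, 10.4 and 10.5 in untreated cells, so that its difference of 0.07 (SE 0.0536) was opposite in sign to the −0.19 of 6 h. This is 1 of 24 members, a share near that of all probe sets. With the replicate block, HOXC5, HOXD9 and PBX3 were called, where 15.9% of all probe sets were. The comparison is of effects within a time, since the levels of the 2 times were normalized apart.

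Genes around the HOX network were read from lists. Of the retinoic acid response list, 21 probe sets of 13 genes were tested at 6 h and none was called at 5 μM against untreated, with a median difference of −0.27. RARB (205080_at) differed by −1.27 (adjusted p = 0.124) and DHRS3 by −2.46 (adjusted p = 0.217), with the spread between untreated arrays given above. Of the regulators of HOX clusters, 3 of 50 probe sets were called at 5 μM and 6 h, where 2.98% of all were. KMT2A, a histone H3 methyltransferase that maintains HOX expression, was higher in 1 probe set, 212078_s_at, by 0.43 (adjusted p = 0.0432), while its 212080_at differed by 0.02. KMT2B, a related methyltransferase, was lower, with a difference of −0.29 (adjusted p = 0.0977). AFF4, a scaffold of the super elongation complex, was lower, with a difference of −0.35 (225229_at, adjusted p = 0.047), at 10.37, 10.22 and 10.24 with 5 μM, against 10.63, 10.67 and 10.57 in untreated cells. Of other homeobox genes, 2 of 21 probe sets were called, both higher, against the same 2.98% of all. ZEB1 (212758_s_at), a repressor linked to mesenchymal states, differed by 0.49 (adjusted p = 0.061), and IRX5 by 0.46 (adjusted p = 0.09997). Another ZEB1 probe set, 212764_at, differed by −0.07. Of the mesenchymal markers 1 of 18 probe sets was called, WWTR1 202132_at, higher by 0.46 (adjusted p = 0.083), while the median difference of the 18 was 0.015. None of the markers of noradrenergic neuroblastoma cells, glia or fibroblasts was called. Of the RNAs transcribed within the HOX clusters, HAGLR and HOXD-AS2 were tested. HAGLR, from the HOXD cluster, was at 8.17, 8.12 and 8.32 with 5 μM, against 8.33, 8.58 and 8.59 in untreated cells (difference −0.30, adjusted p = 0.158), and HOXD-AS2 differed by −0.05. At 1 μM and at 24 h no probe set of these lists was called.

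The calls in the lists moved with the fit. With the replicate block, under which 18.6% of all probe sets were called at 5 μM and 6 h, 10 of 21 probe sets of the retinoic acid list were called there, all lower, among them those of CYP26A1, CYP26B1, DHRS3 and RARB. So were 13 of 50 of the HOX regulators (5 higher, 8 lower) and 7 of 21 of the other homeobox genes (4 higher, 3 lower), as well as HAGLR, which was lower. Among the markers the block called 6 of 16 probe sets for noradrenergic cells (5 lower), 4 of 18 for mesenchymal cells (2 lower) and 3 of 9 for fibroblasts (all lower). At 1 μM, where it called 12.5% of all, it called 7 of the retinoic acid list (6 lower), 9 of the HOX regulators (6 lower), 3 of the other homeobox genes (2 lower), HAGLR (lower), and 3 mesenchymal (2 lower) and 2 fibroblast (both lower) marker probe sets. No probe set of these lists was called with the block at 24 h. Without the block, the 6 list probe sets called at 5 μM and 6 h were all called without untreated array 1, where 10.8% of all probe sets were called. Of the 6, none was called without untreated array 2 (0.133% of all called), untreated array 3 (0.294%), 5 μM array 2 (0%) or 5 μM array 3 (0.00445%). Between 2 and 4 were called without any other single array, where between 0.419% and 2.82% of all were. The counts of the lists thus moved with those of all probe sets.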

How the data were processed

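Expression was measured on 18 Affymetrix U133 Plus 2.0 arrays of retinoic acid-differentiated SH-SY5Y cells. The log2 values were deposited by the authors after background correction, RMA normalization and median polish with the affy library, separately for each time, so levels were compared within a time only. Versions of RMA and limma used upstream are not given in the sources used here. Groups came from the labels. Probe sets were named from GEO's platform annotation, in which 41097 of 54675 had 1 symbol, 1801 several and 11777 were not listed, and control probe sets were left out. Probe sets with at least 1 symbol and a mean over 9 arrays above log2(40) were kept, and only those with 1 symbol were counted as members or list genes. A linear model with 1 mean per dose was fitted to the 9 arrays of a time with limma 3.58.1 in R 4.3.3 (lmFit, eBayes), with Benjamini-Hochberg adjustment over all probe sets kept and calls at a false discovery rate of 10%. The comparison of effects between times used 1 fit over all arrays. The script was tested on simulated data. The number of arrays, 3 per group, limits the precision.

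Replicate numbers came from the labels. Deviations from the dose mean correlated between 0.377 and 0.768 in 9 pairs of arrays with the same number at 6 h and between 0.424 and 0.733 at 24 h. In 18 pairs with different numbers they ran from −0.632 to 0.0711 at 6 h and from −0.575 to 0.165 at 24 h. Deviations cancel within a dose, so positive values for equal numbers force lower ones for different numbers, which are no separate evidence of pairing. Equal numbers were treated as pairs because of the positive values alone. The fit with the number as a block is given for the members and for the gene lists.

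The members and gene lists were chosen with earlier results of these data known. Genes named are those called, the 2 highest members of each family, the 6 members with the widest untreated range, the retinoic acid genes CYP26A1, CYP26B1, DHRS3 and RARB, and up to 4 called genes of each list. Others were named after their values were seen, to give every HOX gene tested and the cofactor probe sets that separated the arrays. Alternatives tried were the filters, the block, the arrays in the fit, centring, quantile normalization, an intensity trend, array weights, a stricter threshold and leaving out arrays. The block and left-out arrays for the gene lists were added after seeing the data.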

Additional observations from a re-analysis of the deposited data

Results flagged for a closer look

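PBX3 stood out because its difference between 5 μM cocaine and untreated cells was not the same at 6 h as at 24 h, by a test of the difference itself (log2 difference of −0.26, SE 0.0707, adjusted p = 0.0754, limma, n = 3 per group). It was 1 of 24 member probe sets, where 4.21% of all probe sets were called. At 6 h all 5 μM arrays were lower than all untreated arrays, which by itself fixes the sign in 3 of 3 same-numbered pairs. The call held with each array centred on its median (adjusted p = 0.0541) and with the replicate block (0.0415). It was lost without the signal filter (0.15), at an adjusted p under 0.05, and without any 1 of these arrays: untreated arrays 2 or 3 or 5 μM arrays 1 or 3 of 6 h, or untreated arrays 1 or 2 or any of the 5 μM arrays of 24 h, with adjusted p between 0.114 and 0.167 and differences between −0.27 and −0.23. The ratio of spiked controls also separated cocaine from untreated arrays at 6 h and not at 24 h. The 3′ to 5′ ratio of ACTB separated 5 μM (0.686 to 1.026) from untreated arrays (0.488 to 0.654) at 24 h. The part of either in this result was not tested.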

How the results depend on the processing

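No member was called in the 6 dose comparisons as fitted, and the counts that follow are of member probe sets. At 5 μM against untreated and 6 h the count was 6 with the replicate block, 1 (HOXD9) with each array centred on its median, where 3.57% of all probe sets were called, and 9 with array weights, and between 0 and 10 with 1 array left out, the 10 without untreated array 1. At 1 μM against untreated and 6 h it was 5 with the replicate block, 5 with array weights and between 0 and 9 with 1 array left out, the 9 without untreated array 1. Array weights called 14.7% and 4.49% of all probe sets in these comparisons. With the block and without untreated arrays 2 and 3, an alternative chosen after seeing the data, which sets the cocaine arrays against 1 untreated array, 0 were called at 5 μM (2.7% of all) and 2 of 23 at 1 μM (HOXD1 and HOXD4, both higher, against 8.55% of all). For the effect at 6 h against 24 h, where 1 was called, the count was 0 without the signal filter, 0 at an adjusted p under 0.05, 3 with the replicate block (15.9% of all), and between 0 and 5 with 1 array left out, the 5 without untreated array 1 of 6 h (6.11% of all). At 5 μM against 1 μM and at 24 h, leaving out an array and the other alternatives run gave 0. The block changed no other call of a member. Over all probe sets at 5 μM and 6 h, the 670 calls became 4184 with the block, 3309 with array weights, 131 with only the 6 arrays compared, 104 at an adjusted p under 0.05, and between 0 and 2425 with 1 array left out. The causes were not tested. Only 24 of 60 member probe sets at 6 h were bright enough to be tested. The annotation used gave no HOXA gene but HOXA2 a probe set of its own, which does not show that the array lacks probes for the others. Probe sets of HOXC4, HOXC5 and HOXC6, whose transcripts overlap, may not be told apart. Those of HOXD4 may likewise read the overlapping HOXD3.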
